A study of Danio rerio with 36 samples.

Results

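The 5 zebrafish genes slc16a1a, slc16a1b, slc16a3b, SLC16A6 and slc16a6b, all of the monocarboxylate transporter family, were followed through every group of an RNA-sequencing series on the sgsh mutant. They were taken by name, as the genes whose symbol in the count table is 1 of these 5, and make up 5 of the 32520 genes in the tables. The sgsh gene encodes the lysosomal sulfamidase that removes sulfate from heparan sulfate, and its loss causes mucopolysaccharidosis type IIIA in people. The mutant fish, called sgsh here, were homozygous for sgshΔex5-6, an allele named for a deletion of exons 5 and 6 and kept on the TU strain, and wild-type fish were the reference at each stage. Whole embryos at 24 hours post fertilization (hpf), larval heads at 5 days post fertilization (dpf) and brains at 2, 3 and 18 months were sequenced from sgsh and from wild-type fish. At 2 months, brains were also sequenced from sgsh and wild-type fish that carried Tg(-3.5ubb:mTagBFP2-T2A-sgsh), a stable transgene in which the ubiquitin promoter drives wild-type sgsh together with a blue fluorescent protein in all tissues. This gave 12 groups of 3 libraries, 36 in all. Each library pooled 50 embryos or heads or 3 brains, so the replicates are pools and single animals cannot be seen. In whole embryos, heads or brains, fewer cells of a type and less RNA per cell cannot be told apart. Whether the fish with the transgene were siblings of those without it is not given in the sources used here.

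Monocarboxylate transporters are membrane proteins that carry lactate, pyruvate and ketone bodies, mostly together with a proton and in the direction set by the gradients. In mammals the slc16a1 product (MCT1) serves uptake and release in many cells, including brain endothelium and glia. The slc16a3 product (MCT4) is known as the lactate exporter of cells that rely on glycolysis, and in mammals it responds to hypoxia. Slc16a6 (MCT7) is less well known, and in zebrafish slc16a6a is needed for the export of the ketone body beta-hydroxybutyrate from the liver in fasting. MCT1 and MCT4 reach the plasma membrane with the help of basigin (bsg). The duplicated genome of teleost fish holds a and b copies of many of these genes.

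In the tables' own coordinates (GRCz11, the build named in the submitters' processing notes), slc16a1a (ENSDARG00000016963) spans bases 48978202 to 49049019 of chromosome 6 on the plus strand. The gene slc16a1b (ENSDARG00000068572) spans 26923613 to 26961779 of chromosome 8 on the minus strand, and slc16a3b (ENSDARG00000045051) spans 33350256 to 33359654 of chromosome 12 on the minus strand. Slc16a6b (ENSDARG00000060246) lies on the plus strand of chromosome 3 at 36313532 to 36328672. SLC16A6 (ENSDARG00000104629), written in capitals because the annotation took the human symbol, lies on the minus strand of chromosome 12 at 20575640 to 20584439. The annotation calls SLC16A6 a polymorphic pseudogene and the other 4 protein coding. All positions are those of whole genes, and reads were counted over their exons. SLC16A6 overlaps the gene arsg, on the opposite strand, by 888 bases.

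The deposited values were raw counts per gene. The total count of a library lay between 24761341 and 26038889 at 24 hpf, 17061799 and 17303538 at 5 dpf, 16200025 and 16594654 at 2 months, 21340728 and 24678514 at 3 months and 22177654 and 22511711 at 18 months. The widest spread of depth within a group was in the 3-month sgsh brains, where 1 library had 24678514 counts and the lowest 21340728, and none of the 36 pairs of libraries within groups was a duplicate. In mutants all libraries had fewer sgsh counts than the wild-type ones at 5 dpf and at 2, 3 and 18 months without the transgene, and the sgsh count overlapped between the genotypes at 24 hpf and among the fish with the transgene, where it cannot check the labels. The 5 dpf and 2-month libraries were counted one by one, and the libraries of 24 hpf, 3 months and 18 months in a shared table with counting settings that are not stated. Levels are given in CPM, a gene's count as a rate per library total on the usual CPM scale, and levels set across these tables are not a test.

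Each of the 5 genes had its own course from embryo to brain. Slc16a1b was highest in embryos, at 54.5 ± 3.43 CPM in sgsh and 50.9 ± 0.839 CPM in wild type (SD, n = 3 each), and lowest at 18 months, at 9.14 ± 0.164 CPM in sgsh and 7.43 ± 0.768 CPM in wild-type brains. Its neighbour in function slc16a1a ran the other way early on, with 0.773 ± 0.139 CPM in sgsh and 0.796 ± 0.229 CPM in wild-type embryos, and reached its highest level in the 2-month brain without the transgene. Slc16a6b stood at 21.9 to 37.5 CPM in 10 of the 12 groups as group means, and at 83.7 and 114.5 CPM in sgsh and wild-type brains of 2 months without the transgene. SLC16A6 was lowest in embryos and heads, at 19.9 to 24.9 CPM, and lay between 58.4 and 108 CPM in all brain groups. By the ratio of the highest to the lowest group mean, slc16a3b varied least, with group means between 16.3 and 48.8 CPM.

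**Figure D1:**
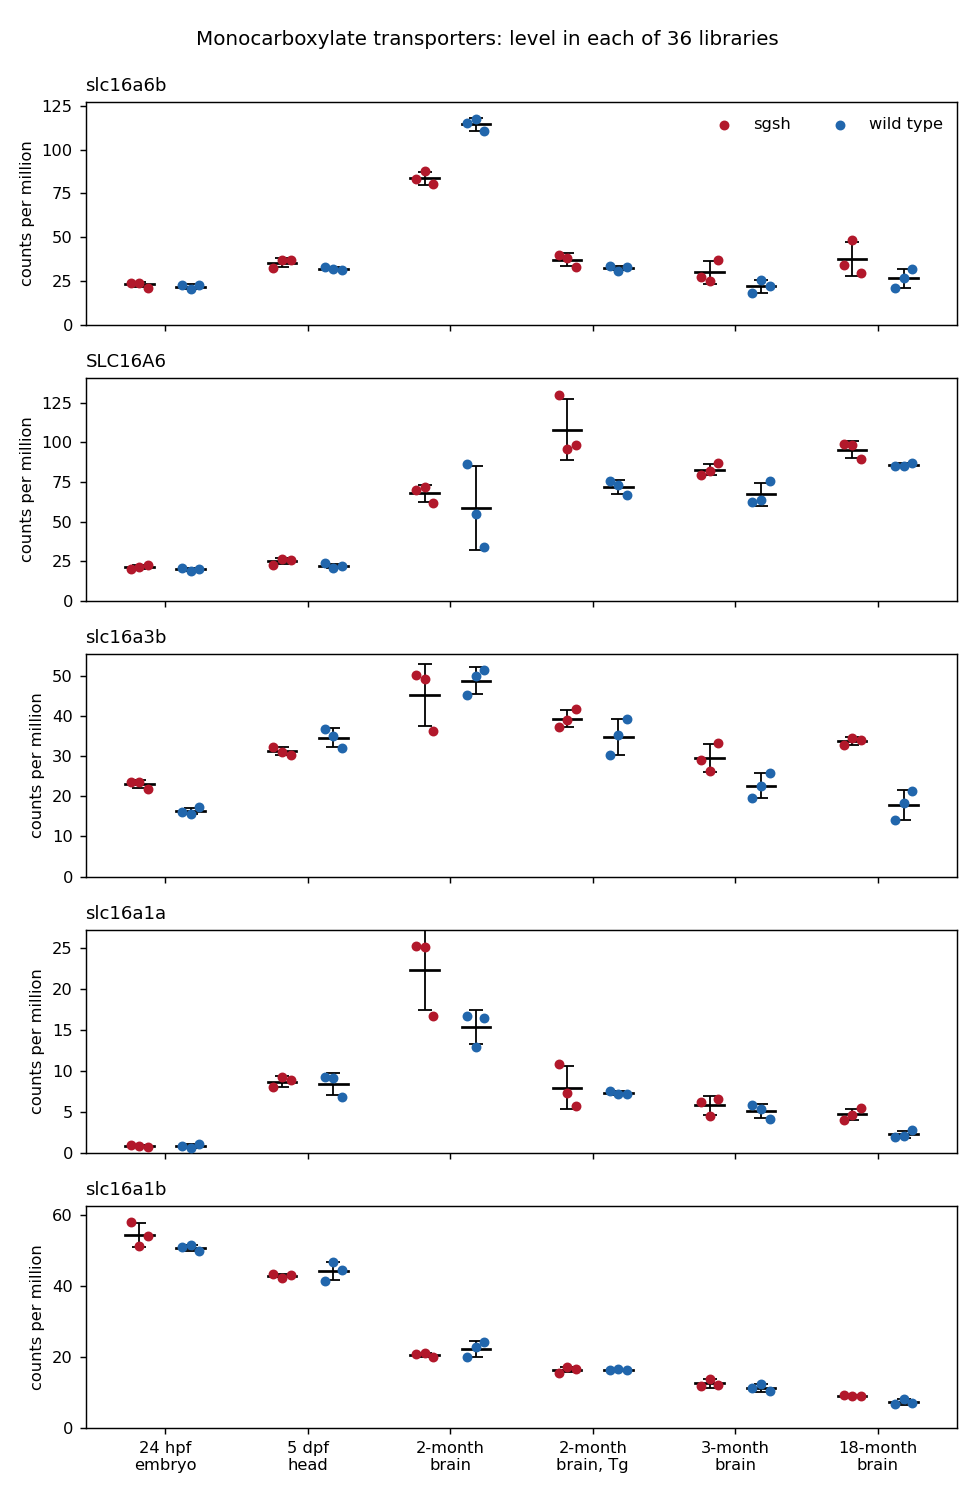
Level of each transporter in CPM (vertical axis, linear, from 0) in all 36 libraries, by stage and tissue, with sgsh left of wild type; points are libraries, the bar is the group mean and the whisker 1 SD (n = 3), and Tg marks fish with the sgsh transgene. Slc16a6b stood at 83.7 and 114.5 CPM in the sgsh and wild-type 2-month brains without the transgene and at 21.9 to 37.5 CPM in the other 10 groups, and slc16a1b was lower in all brain groups than in embryos and heads.

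In order of their means, most neighbouring groups overlapped. For slc16a6b the wild-type 2-month brains stood above the sgsh 2-month brains with no overlap, these stood above all the rest, and the remaining 10 groups each overlapped the next. For slc16a1a the order was led by sgsh and then wild-type 2-month brains, which did not overlap each other or the next group, and the embryos of both genotypes, which overlapped, came last. For slc16a1b the order followed the stage: embryos, heads, 2-month brains without the transgene, 2-month brains with it, 3-month brains and 18-month brains. In that order each stage stood clear of the next, while the genotypes of a stage overlapped except at 18 months.

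Levels of different genes can be compared only per length. On the RPKM scale, which is CPM divided by the gene's length in kilobases as the tables give it, slc16a1b led the 5 in embryos, at 24.7 ± 1.56 RPKM in sgsh and 23.1 ± 0.380 RPKM in wild type. In 18-month brains SLC16A6 led, at 25.97 ± 1.45 RPKM in sgsh and 23.4 ± 0.306 RPKM in wild type, and slc16a1a came last, at 1.77 ± 0.265 RPKM in sgsh and 0.847 ± 0.177 RPKM in wild type. In wild-type 2-month brains without the transgene slc16a6b came first at 23.3 ± 0.737 RPKM.

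Tests were made with edgeR's quasi-likelihood test on all genes that passed a low-count filter, with Benjamini-Hochberg adjustment over all of them, and a gene was called at an adjusted p under 0.05. All 5 members passed the filter in every comparison. Where values are likely to have chosen a member, no p is given. SLC16A6 and slc16a3b were chosen by the 3-month contrast of sgsh with wild type, from which the study ranked them among its driver genes, so no p is given for any member in that contrast, or for these 2 genes wherever 3-month libraries enter. Slc16a6b was probably chosen by the 2-month levels and has no p in any 2-month contrast, because it ranked 1st of all genes tested by p for the transgene in wild type and 4th for the transgene in sgsh. What led to the choice of slc16a1a and slc16a1b is not recorded. Values of these data may have entered that choice too, so their p-values carry this limit.

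At 24 hpf, 1 of the 5 genes was called between sgsh and wild type, where 21.7% of all genes tested were called. At 5 dpf none of the 5 was called by edgeR, against 14.4% of all genes, with 3 at an unadjusted p under 0.05 and 0 called by DESeq2. In the 2-month brain without the transgene, 0 of the 4 genes that could be tested were called by edgeR and 0 by DESeq2, with 1 at an unadjusted p under 0.05, and 0.841% of all genes were called. With the transgene, sgsh against wild type gave 0 of 4 by edgeR and 0 by DESeq2, 1 at an unadjusted p under 0.05, and 0.0304% of all genes. At 18 months 2 of the 5 were called, both higher in sgsh, against 6.72% of all genes in either direction and 4.52% called higher, and all 5 had an unadjusted p under 0.05. At 3 months, where no test of the members is given, 2.89% of all genes were called. All these shares of genes are of calls at an adjusted p. They cannot be set against the counts of members at an unadjusted p, here or below. The share of all genes at an unadjusted p is not given.

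**Figure D2:**
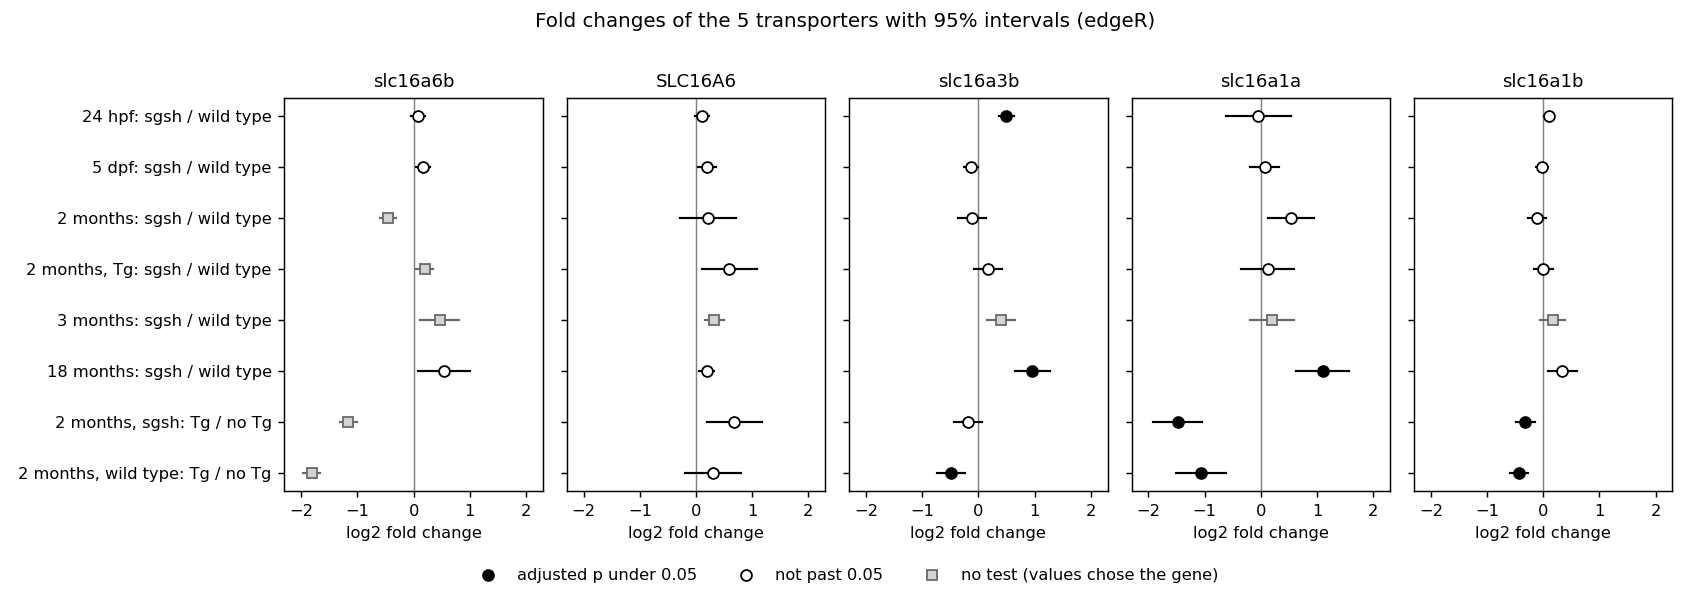
Log2 fold changes (horizontal axis, 0 marks no difference) of the 5 transporters in 8 comparisons, as named at the left with the group on top of the ratio first; lines are 95% intervals from edgeR, filled circles are called at an adjusted p under 0.05, open circles are not, and grey squares have no test because those values are likely to have chosen the gene. At 18 months all 5 lay above 0, and slc16a3b (0.96) and slc16a1a (1.1) were called, while the transgene went with lower slc16a6b, slc16a1a and slc16a1b in both genotypes.

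Slc16a3b, the MCT4 gene, was higher in sgsh than in wild type at both ends of life. In embryos it stood at 23.5, 23.6 and 21.8 CPM in the sgsh libraries, against 16.1, 15.6 and 17.2 CPM in the wild-type libraries. The groups did not overlap, and the lowest sgsh library was above the highest wild-type library. This was a log2 fold change of 0.49 with a 95% interval of 0.36 to 0.63 (edgeR quasi-likelihood test, adjusted p = 4.36e-06), a 1.41-fold difference that was called in all 13 alternatives of the fit. Its paralogue slc16a3a had 2.00 ± 0.234 CPM in sgsh and 1.74 ± 0.138 CPM in wild-type embryos and was not called.

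Other lists moved at 24 hpf too, where 21.7% of all genes were called. Of 24 skeletal muscle genes 22 rose and 1 fell, and their summed level was 25380 to 26930 CPM in sgsh and 19220 to 21610 CPM in wild-type embryos, with none of the 24 at 0. Of 20 regulators of the clock and of fasting 17 fell and 0 rose, with a median log2 fold change of -0.44 against 0.00 over all genes, and their summed level was 535.3 to 578.9 CPM in sgsh and 741 to 769.1 CPM in wild-type embryos. Skeletal muscle is a tissue in which MCT4 is known to be abundant in mammals. Of 13 neuronal genes 8 rose and 0 fell, and of 21 lysosome genes 2 rose and 9 fell. The part of these shifts in the slc16a3b difference was not tested.

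In heads at 5 dpf slc16a3b did not differ in the same way, with 32.3, 31.0 and 30.4 CPM in sgsh and 36.7, 34.9 and 32.1 CPM in wild type. The groups overlapped slightly, and the log2 fold change of -0.13 was not called (edgeR, adjusted p = 0.179). In 2-month brains without the transgene it stood at 50.1, 49.1 and 36.3 CPM in sgsh and at 45.1, 49.9 and 51.3 CPM in wild type, again overlapping, with a log2 fold change of -0.11 and a 95% interval of -0.36 to 0.13. In 3-month brains, from which the gene was ranked by the study, it stood at 29.0, 26.4 and 33.1 CPM in sgsh and 19.6, 22.5 and 25.8 CPM in wild type. There the libraries did not overlap and the log2 fold change, given as a description, was 0.41.

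At 18 months slc16a3b reached 32.6, 34.5 and 34.0 CPM in sgsh brains, against 13.99, 18.3 and 21.2 CPM in wild-type brains. Every sgsh library was above every wild-type library, and the sgsh libraries lay close together while the wild-type ones were spread. The log2 fold change was 0.96 with a 95% interval of 0.65 to 1.27 (edgeR quasi-likelihood test, adjusted p = 0.0104). The call was lost without sgsh replicate 2 (log2 fold change 0.93, edgeR adjusted p = 0.0575) and without wild-type replicate 2 (0.97, adjusted p = 0.0564). The log2 fold change of sgsh against wild type was larger at 18 than at 3 months by 0.54, a description because it holds the 3-month contrast. In sgsh brains the log2 fold change of 18 against 3 months was 0.21, and in wild-type brains it was -0.33.

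Slc16a1a, 1 of the 2 MCT1 genes, was the other gene called at 18 months. It stood at 4.01, 4.59 and 5.40 CPM in sgsh brains and at 1.91, 2.02 and 2.77 CPM in wild-type brains, on 89 to 121 counts in sgsh libraries and 43 to 62 counts in wild-type libraries. The groups did not overlap, and the 2.15-fold difference gave a log2 fold change of 1.1 with a 95% interval of 0.63 to 1.58 (edgeR quasi-likelihood test, adjusted p = 0.0237). The call was lost without sgsh replicate 2 or 3, without wild-type replicate 1 or 2 and with a replicate block, at adjusted p-values of edgeR between 0.0512 and 0.11, while the log2 fold change stayed between 0.98 and 1.29 over all 13 alternatives.

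Slc16a1b, the second MCT1 gene, stood at 9.33, 9.04 and 9.06 CPM in 18-month sgsh brains and at 6.88, 8.31 and 7.09 CPM in wild-type brains. These groups did not overlap either, but the log2 fold change of 0.34 was not called (edgeR, adjusted p = 0.0993). Slc16a6b had 34.3, 48.3 and 29.9 CPM in sgsh and 21.3, 26.6 and 32.1 CPM in wild type at this age, with overlap and a log2 fold change of 0.53 (edgeR, adjusted p = 0.13). SLC16A6 had 98.8, 98.0 and 89.2 CPM in sgsh and 85.2, 85.3 and 87.2 CPM in wild type, which did not overlap, and its log2 fold change of 0.19 was not called (edgeR, adjusted p = 0.0864). In a joint fit of the 18 libraries of the shared table, slc16a6b (edgeR adjusted p = 0.0368) and slc16a1b (0.012) were called at 18 months as well. That fit also drew on embryos and 3-month brains. It called far more of all genes than the main fit, so the share of 6.72% does not apply to it. Leaving out 1 library moved the number of called members to between 0 and 2. It was 0 without sgsh replicate 2 or without wild-type replicate 2, and 1 without sgsh replicate 3 or wild-type replicate 1. The number of all genes called moved with these fits too, as given in the last paragraph.

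In the same 18-month comparison, where 6.72% of all genes were called and 4.52% called higher, 6 of 16 genes of brain vessel endothelium rose and 0 fell, among them kdrl (log2 fold change 0.81) and kdr (0.92), which encode receptors of vascular endothelial growth factor. The median of the list was 0.39, against 0.00 over all genes, and its summed level was 416 to 421.8 CPM in sgsh and 283 to 365.3 CPM in wild-type brains, with no gene at 0. Of 26 genes of the hypoxia response 7 rose and 1 fell, including the rises of hif1aa (0.89), a subunit of the hypoxia-inducible factor, and hif1al (1.35), with a median log2 fold change of 0.33. The summed level of that list was 1615 to 1759 CPM in sgsh and 1357 to 1446 CPM in wild-type brains. Other cell types stood apart too. Of 12 pigment cell genes 5 rose and 1 fell, with a median log2 fold change of 0.67 and a summed level of 131 to 171.5 CPM in sgsh and 70.6 to 77.3 CPM in wild-type brains. Of 14 genes of microglia and macrophages 4 rose and 0 fell, with a summed level of 850.4 to 936.5 CPM in sgsh and 597.8 to 678.4 CPM in wild type. Of 12 genes of radial glia and astroglia 3 rose and 1 fell, at 7141 to 7492 CPM in sgsh and 6203 to 6570 CPM in wild type. Of 9 oligodendrocyte genes 0 rose and 2 fell, with overlapping sums of 1941 to 2357 CPM in sgsh and 2221 to 2602 CPM in wild type. Of 21 lysosome genes 8 rose and 2 fell, and of 20 regulators of the clock and of fasting 6 rose and 0 fell. The part of these lists in the differences of slc16a3b and slc16a1a was not tested.

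With age, both MCT1 genes fell in wild-type brains. Slc16a1a stood at 1.91, 2.02 and 2.77 CPM in wild-type brains of 18 months, against 5.84, 5.33 and 4.17 CPM at 3 months. The ages did not overlap, and the log2 fold change was -1.18 with a 95% interval of -1.63 to -0.73 (edgeR quasi-likelihood test, adjusted p = 0.00197). Slc16a1b stood at 6.88, 8.31 and 7.09 CPM at 18 months, against 11.3, 12.5 and 10.5 CPM at 3 months, again with no overlap and with a log2 fold change of -0.61 (edgeR, adjusted p = 0.00125). These were 2 of the 3 members that could be tested, and 20.8% of all genes were called in wild-type ageing. Slc16a6b had a log2 fold change of 0.29 and was not called (edgeR, adjusted p = 0.367), and SLC16A6, with no test, had 0.37.

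In sgsh brains slc16a1b also fell with age, to 9.33, 9.04 and 9.06 CPM at 18 months, against 11.9, 13.9 and 12.1 CPM at 3 months. This gave a log2 fold change of -0.45 (edgeR, adjusted p = 0.00763), 1 call of 3 members, where 19.5% of all genes were called. Slc16a1a stood at 4.01, 4.59 and 5.40 CPM in sgsh brains of 18 months and at 6.24, 4.48 and 6.61 CPM at 3 months. These overlapped, and the log2 fold change of -0.30 was not called (edgeR, adjusted p = 0.30). The difference between the genotypes in this change was 0.88 on the log2 scale with a 95% interval of 0.27 to 1.5, and it did not pass the test over all genes (edgeR interaction, adjusted p = 0.215). By edgeR and by DESeq2 0 of the 3 members that could be tested were called in this interaction, 1 had an unadjusted p under 0.05, and 0.126% of all genes were called. Marker lists moved with age as well. Of 9 oligodendrocyte genes 5 fell and 0 rose in wild type, to a summed level of 2221 to 2602 CPM at 18 months, against 4227 to 4498 CPM at 3 months, and 6 fell and 0 rose in sgsh, to 1941 to 2357 CPM at 18 months, against 3571 to 3697 CPM at 3 months. Of 12 genes of radial glia and astroglia 5 fell in wild type and 3 in sgsh, and none rose. Of 16 endothelial genes 5 fell in wild type and 3 in sgsh, the latter near the 19.5% of all genes, and none rose. Other lists had calls in either direction, beside 20.8% of all genes in wild type and 19.5% in sgsh. Of 14 genes of microglia and macrophages 5 were called in wild type and 10 in sgsh, where every log2 fold change was above 0. Of 21 lysosome genes 10 were called in wild type and 13 in sgsh. Regulators of the clock and of fasting had 9 and 11 calls of 20, and neuronal genes 3 and 7 of 13. The mitochondrial share of the counts was 12.02% to 13.1% in wild-type brains of 18 months, against 9.38% to 9.59% at 3 months, and 12.2% to 13.8% in sgsh brains of 18 months, against 10.1% to 10.8% at 3 months. Their part in the fall of slc16a1a and slc16a1b was not tested. The wild-type and sgsh ageing comparisons share no library, but each shares its libraries with the genotype comparisons of 3 and 18 months.

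**Figure D3:**
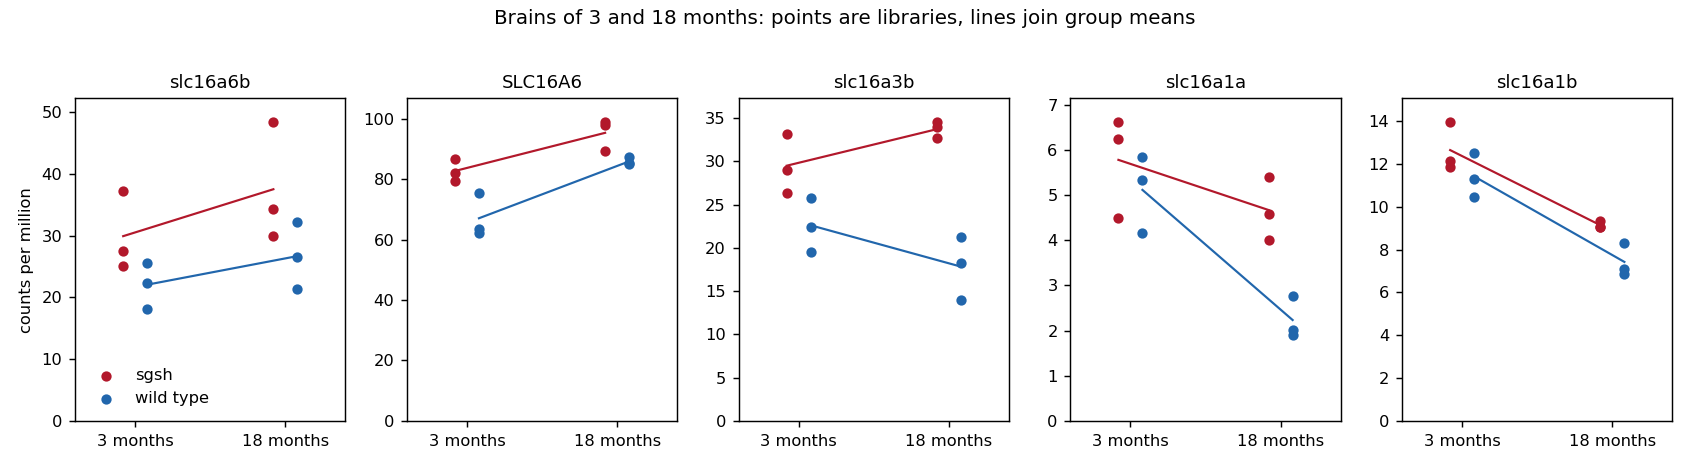
Level of each transporter in CPM (vertical axis, linear, from 0) in brains of 3 and 18 months; points are libraries (3 per group), lines join the group means, and sgsh points are drawn left of the wild-type points. Slc16a1a and slc16a1b were lower at 18 than at 3 months in wild-type brains, with log2 fold changes of -1.18 and -0.61, and slc16a3b of the sgsh and wild-type libraries lay farthest apart at 18 months.

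The sgsh transgene went with lower levels of both MCT1 genes at 2 months, in mutants and in wild type. Slc16a1a stood at 10.9, 7.26 and 5.71 CPM in sgsh brains with the transgene, against 25.2, 25.1 and 16.7 CPM in sgsh brains without it. The groups did not overlap, and the log2 fold change was -1.48 with a 95% interval of -1.91 to -1.05 (edgeR quasi-likelihood test, adjusted p = 0.000288). In wild-type brains the same gene stood at 7.54, 7.20 and 7.16 CPM with the transgene and 16.7, 12.9 and 16.5 CPM without it, a log2 fold change of -1.07 (edgeR, adjusted p = 0.00407). The 3 wild-type libraries with the transgene lay close together, while the sgsh libraries with it were spread.

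Slc16a1b moved less. It had 15.7, 17.2 and 16.6 CPM in sgsh brains with the transgene and 20.9, 21.2 and 20.04 CPM without it, a log2 fold change of -0.32 (edgeR, adjusted p = 0.0107). In wild-type brains it had 16.4, 16.6 and 16.4 CPM with the transgene and 20.02, 22.9 and 24.2 CPM without it, a log2 fold change of -0.44 (edgeR, adjusted p = 0.00206). Neither pair of groups overlapped, and both MCT1 genes were called in all 19 alternatives of both transgene comparisons. Whether these levels also led to the choice of both genes is not recorded. Of the 4 members that could be tested, 2 were called for the transgene in sgsh, where 18.4% of all genes were called, and 3 in wild type, where 15.2% were.

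The third of these was slc16a3b. It stood at 30.2, 35.1 and 39.2 CPM in wild-type brains with the transgene, against 45.1, 49.9 and 51.3 CPM in those without it, and the groups did not overlap. Its log2 fold change was -0.48 (edgeR, adjusted p = 0.0134), and the call was lost without wild-type replicate 3 (log2 fold change -0.44) and without replicate 1 of the wild type with the transgene (-0.39), at adjusted p-values up to 0.0581. In sgsh brains it stood at 37.3, 39.0 and 41.7 CPM with the transgene and 50.1, 49.1 and 36.3 CPM without it, which overlapped because of replicate 3 without the transgene. That log2 fold change was -0.19 and was not called (edgeR, adjusted p = 0.286), but without sgsh replicate 3 it was -0.32 and was called. The difference between the genotypes in the response was 0.29, with a 95% interval of -0.06 to 0.64 (edgeR interaction, adjusted p = 0.602).

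Slc16a6b was also lower with the transgene, which is given as a description because these values are likely to have chosen it. It stood at 40.1, 38.2 and 32.9 CPM in sgsh brains with the transgene, against 83.2, 87.6 and 80.3 CPM in sgsh brains without it. In wild type it stood at 33.6, 30.9 and 32.9 CPM with the transgene, against 115.3, 117.6 and 110.5 CPM without it. Log2 fold changes were -1.16 in sgsh and -1.81 in wild type. The levels with the transgene were close to those of both genotypes in the 5 dpf heads and near those of the 3-month and 18-month brains, which came from another count table.

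Between the genotypes slc16a6b was lower in sgsh than in wild type at 2 months without the transgene, with a log2 fold change of -0.46 and no overlap of the libraries listed above. In brains with the transgene the same log2 fold change was 0.20 and the libraries overlapped. The difference between these was 0.65, again a description. The other 4 members gave 0 calls for this interaction by edgeR and 0 by DESeq2, with 0 at an unadjusted p under 0.05, and 0.127% of all genes were called. In embryos slc16a6b stood at 23.9, 24.1 and 21.2 CPM in sgsh and 22.7, 20.5 and 22.5 CPM in wild type, and in heads at 32.6, 37.0 and 37.0 CPM in sgsh and 33.0, 31.9 and 31.4 CPM in wild type. Both pairs overlapped and were not called (edgeR, adjusted p = 0.426 at 24 hpf and 0.0888 at 5 dpf), and at 5 dpf slc16a6b was called without sgsh replicate 1 (edgeR, adjusted p = 0.0259).

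**Figure D4:**
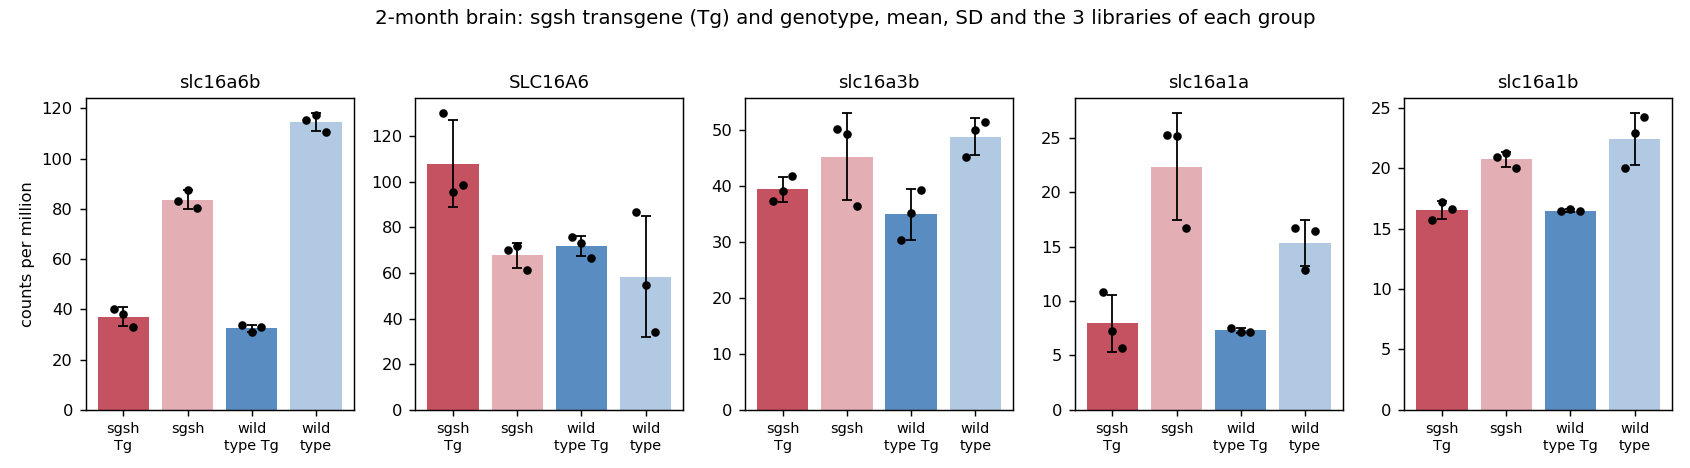
Level of each transporter in CPM (vertical axis, linear, from 0) in the 2-month brain; bars are group means, whiskers 1 SD and points the 3 libraries of each group, with the groups carrying the transgene (Tg) left of those without it and sgsh left of wild type. Slc16a6b, slc16a1a and slc16a1b had lower libraries with the transgene than without it in both genotypes with no overlap, and SLC16A6 had its highest libraries in sgsh brains with the transgene.

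Marker lists were read in the same comparisons, where 18.4% of all genes were called in sgsh and 15.2% in wild type. Of 20 regulators of the clock and of fasting, 11 rose and 6 fell in sgsh and 10 rose and 2 fell in wild type. Their summed level was 2168 to 2503 CPM in sgsh with the transgene, against 1205 to 1580 CPM in sgsh without it, and 1882 to 2068 CPM in wild type with it, against 1090 to 1341 CPM in wild type without it. The clock gene per1b had a log2 fold change of 1.79 in sgsh and 1.07 in wild type. Of 10 red blood cell genes tested 5 fell and 1 rose in sgsh and 4 fell and 0 rose in wild type. Their summed level was 627.2 to 709.5 CPM in sgsh with the transgene, against 1073 to 1278 CPM in sgsh without it, and 582.7 to 848.8 CPM in wild type with it, against 1048 to 1820 CPM in wild type without it, and the embryonic globin genes hbae1.1 and hbbe3 had no count in these groups. The mitochondrial share of the counts was 4.56% to 5.39% in sgsh with the transgene, against 4.18% to 4.39% without it, and 4.58% to 4.82% in wild type with it, against 4.29% to 4.33% without it. Of 16 endothelial genes 4 fell and 0 rose in each genotype, near the share of all genes. Of 9 oligodendrocyte genes 6 rose and 0 fell in sgsh, and 0 were called in wild type. Of 13 pigment cell genes 2 rose and 4 fell in sgsh, and 0 rose and 1 fell in wild type. Of 21 lysosome genes, sgsh among them, 11 were called in sgsh and 6 in wild type. Of 26 genes of the hypoxia response 10 were called in either direction in sgsh and 4 in wild type. Radial glia and astroglia had 5 calls in sgsh and 4 in wild type, of 12 genes. Neuronal genes had 6 and 5 calls of 13, and genes of microglia and macrophages 5 and 1 of 14. The muscle sums overlapped between the groups, with 5 of 20 tested called higher and 1 lower in sgsh and 0 called in wild type, and the summed level of the 24 genes of that list was 79.3 to 2027 CPM in sgsh and 61.4 to 1826 CPM in wild type with the transgene, against 68.0 to 123.1 CPM and 80.2 to 225.1 CPM without it. The part of all these in the transporter differences was not tested, and whether the brains of the 4 groups were taken at the same time of day is not given in the sources used here.

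SLC16A6, the second slc16a6 gene, did not fall with the transgene. It stood at 130.1, 95.5 and 98.4 CPM in sgsh brains with the transgene, against 70.1, 71.8 and 61.5 CPM in sgsh brains without it. The groups did not overlap, and the log2 fold change of 0.68, with a 95% interval of 0.19 to 1.18, did not pass the threshold (edgeR, adjusted p = 0.0541). Over 20 alternatives the adjusted p lay between 0.00767 and 0.177, and 7 of them called the gene. In wild type SLC16A6 stood at 75.6, 73.0 and 66.8 CPM with the transgene and 86.6, 54.6 and 33.9 CPM without it, where the 3 wild-type libraries were far apart and no call was made (log2 fold change 0.30, edgeR adjusted p = 0.417). Without wild-type replicate 1 this log2 fold change was 0.70 and was called (edgeR, adjusted p = 0.0309).

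The spread of SLC16A6 in these wild-type libraries went together with counts at a second record, slc16a6a. In the tables slc16a6a (ENSDARG00000102793) lies on an unplaced scaffold, KN150708.1, and SLC16A6 lies between amz2 and arsg on chromosome 12. In the newer RefSeq annotation of the GRCz12tu assembly, the gene between amz2 and arsg on chromosome 12 is named slc16a6a. Wild-type 2-month libraries 1, 2 and 3 had 1427, 898 and 552 counts at SLC16A6 and 42, 102 and 167 counts at slc16a6a. So slc16a6a held 2.86%, 10.2% and 23.2% of the 2 records' counts in them, and 21% to 25.9% in the 5 dpf heads of both genotypes. It held at most 4.27% in sgsh brains without the transgene, 6.72% in wild-type brains with it, 0.125% in sgsh brains with it and 0.306% in the libraries of the shared table. The summed counts of both records still differed between the 3 wild-type libraries, at 1469, 1000 and 719. Reads that fit both records may have been lost or split, so values of SLC16A6 are uncertain where both are counted.

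**Figure D5:**
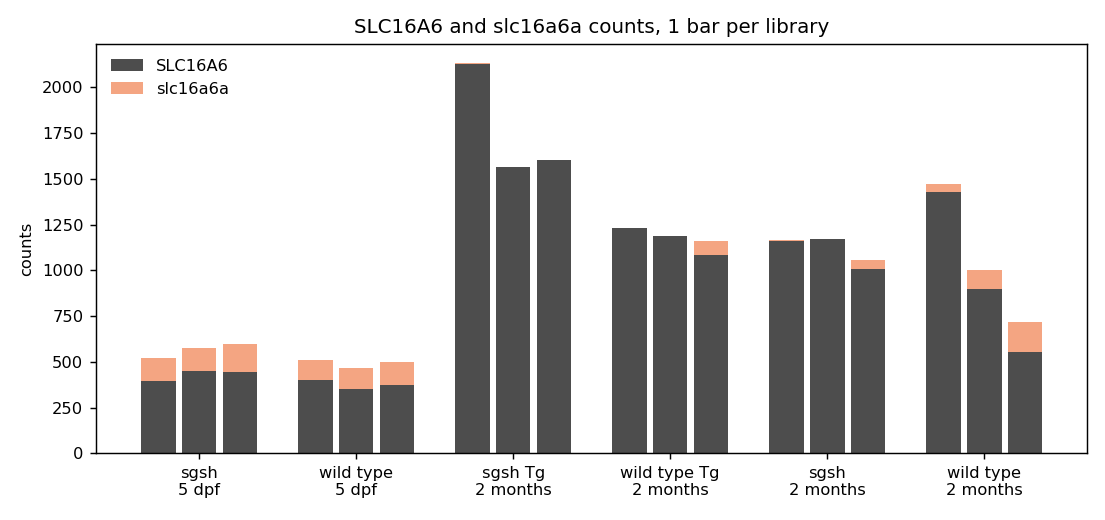
Counts at SLC16A6 (dark) and at slc16a6a (light, stacked on top) in the 18 libraries of 5 dpf heads and 2-month brains, 1 bar per library in the order of replicates 1 to 3; the vertical axis is raw counts, linear, from 0. The slc16a6a part was 21% to 25.9% of the sum in the heads and 2.86%, 10.2% and 23.2% in the 3 wild-type brains without the transgene, where the SLC16A6 counts were 1427, 898 and 552.

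With the counts of both records summed, which was chosen after their counts were seen, the transgene in sgsh gave a log2 fold change of 0.66 and a call (edgeR, adjusted p = 0.022), and the transgene in wild type gave 0.19 and none (adjusted p = 0.54). Between the genotypes SLC16A6 was not called in the 2-month brain without the transgene (log2 fold change 0.21, 95% interval -0.29 to 0.71) or with it (0.59, edgeR adjusted p = 0.721), although the libraries with the transgene did not overlap. In 3-month brains, which ranked it in the study, it stood at 79.5, 81.9 and 86.6 CPM in sgsh and 62.1, 63.5 and 75.5 CPM in wild type, with no overlap and a log2 fold change of 0.33 as a description. At 24 hpf its log2 fold change was 0.11 and at 5 dpf 0.20, neither called (edgeR, adjusted p = 0.238 and 0.0956), and at 5 dpf it was called without sgsh replicate 1 and without wild-type replicate 1.

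Before 18 months neither slc16a1a nor slc16a1b was called between the genotypes where a test is given. In embryos slc16a1a had 22, 21 and 16 counts in sgsh and 20, 15 and 27 in wild type, too few to show any but a large difference, with a 95% interval of the log2 fold change of -0.63 to 0.54. In heads it had a log2 fold change of 0.07, with an interval of -0.19 to 0.33. In 2-month brains without the transgene slc16a1a stood at 25.2, 25.1 and 16.7 CPM in sgsh and 16.7, 12.9 and 16.5 CPM in wild type, with the lowest sgsh library barely above the highest wild-type library. The 1.45-fold difference, a log2 fold change of 0.54 with an interval of 0.13 to 0.94, had an unadjusted p of 0.0129 and was not called (edgeR, adjusted p = 0.257). Slc16a1b had log2 fold changes of 0.10 at 24 hpf, -0.02 at 5 dpf and -0.11 at 2 months without the transgene, and none was called. At 3 months, as a description, slc16a1a had 0.20, slc16a1b 0.17 and slc16a6b 0.46, and the libraries of each overlapped.

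From embryo to brain in wild type, stage and tissue changed together, and most genes were called. Slc16a1a had a log2 fold change of 2.60 in 3-month brains against 24 hpf embryos (edgeR, adjusted p = 3.25e-08), and slc16a1b one of -2.22 (adjusted p = 1.07e-13). These were 2 of 3 testable members, where 90.8% of all genes were called, and slc16a6b (-0.06) was the third. SLC16A6 had 1.69 and slc16a3b 0.40, as descriptions. In 2-month brains against 5 dpf heads, all 4 testable members were called, where 79.4% of all genes were. SLC16A6 (log2 fold change 1.31), slc16a1a (0.77) and slc16a3b (0.39) were higher in the brain and slc16a1b (-1.09) was lower.

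Among the rest of the family and its helpers, some genes were called between the genotypes at 24 hpf, 5 dpf, 3 months and 18 months. At 18 months 3 of 15 tested rose and 0 fell, where 6.72% of all genes were called: slc16a12b (log2 fold change 1.1), slc16a10 (0.66), an aromatic amino acid transporter in mammals, and slc16a9a (1.11). At 3 months slc16a9a (0.95) and slc16a12b (0.91) rose, 2 of 15, where 2.89% of all genes were called. Slc16a9a stood at 67.3 ± 2.86 CPM in sgsh and 35.5 ± 9.59 CPM in wild type at 3 months, and at 79.5 ± 14.3 CPM in sgsh and 37.9 ± 13.6 CPM in wild type at 18 months. At 5 dpf and 2 months its mean was lower in sgsh. It stood at 10.1 ± 0.610 CPM in sgsh and 12.7 ± 1.88 CPM in wild-type heads. In 2-month brains it stood at 71.4 ± 6.22 CPM in sgsh and 80.6 ± 13.7 CPM in wild type without the transgene. With the transgene it stood at 49.0 ± 12.9 CPM in sgsh and 55.9 ± 6.64 CPM in wild type. At 24 hpf 3 rose and 3 fell of 15, where 21.7% of all genes were called, with slc16a9a (1.24) the highest. At 5 dpf 1 rose and 1 fell of 18, a share below the 14.4% of all genes that were called. The median log2 fold change of the family was 0.06 at 18 months and 0.05 at 24 hpf, near that of all genes at 0.00 in both. With the transgene 5 rose and 4 fell of 15 in sgsh, where 18.4% of all genes were called, and 2 rose and 5 fell in wild type, where 15.2% were. Slc16a10, slc16a12b and slc16a9a fell and slc16a3a rose in both genotypes, slc16a3a to 19.8 ± 0.449 CPM in sgsh with the transgene, against 11.1 ± 3.37 CPM in sgsh without it. Per length, basigin was far more abundant than any member, at 314.7 ± 5.67 RPKM in 2-month sgsh brains with the transgene and 288.6 ± 12.8 RPKM without it. Its levels there were 725.1 ± 13.1 CPM with the transgene and 664.9 ± 29.6 CPM without it.

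The enzymes that make and use the transported substrates were read from lists of lactate and pyruvate metabolism and of ketone bodies. At 18 months 3 of 20 lactate and pyruvate genes rose and 0 fell, where 6.72% of all genes were called: pdk3b (log2 fold change 0.81) and pdk4 (0.79), kinases that shut pyruvate dehydrogenase, and ldha (0.21), a lactate dehydrogenase subunit. At 24 hpf 6 of 19 rose and 0 fell, where 21.7% of all genes were called, among them ldha (0.32) and pdk4 (0.27). With the transgene 4 of 19 rose and 1 fell in sgsh and 3 rose and 1 fell in wild type, shares near those of all genes (18.4% in sgsh and 15.2% in wild type), and ldha rose by 0.29 in sgsh and 0.24 in wild type on the log2 scale. Of the 13 ketone body genes tested, 4 rose and 1 fell with the transgene in sgsh and 4 rose and 4 fell in wild type, beside the same 18.4% and 15.2%, with pparaa (0.66 in sgsh, 0.60 in wild type), a receptor that drives fasting genes, rising in both.

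The genes whose levels followed each member most closely were found over the 24 adult brain libraries, on log2(CPM + 1) with each age centred on its own mean, among 14564 genes. Pearson's r is given as a description, since the libraries fall into groups and share tables. For slc16a6b they were lrrc8db (r = 0.946), a subunit of a volume-regulated anion channel, ENTPD2 (0.93) and zgc:63587 (0.926). For SLC16A6 the closest were csf1a (0.841), a growth factor of macrophages and pigment cells, zgc:194209 (0.796) and sec61g (0.741). For slc16a3b they were ucp2 (0.918), a mitochondrial carrier, txndc12 (0.908) and hif1al (0.904). For slc16a1a they were enosf1 (0.916), mad2l1bp (0.909) and wee1 (0.909), a kinase that delays mitosis, and for slc16a1b they were IRS1 (0.882), an adaptor of the insulin receptor, slc7a3a (0.857) and coro1ca (0.85).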

How the data were processed

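Sequencing libraries (150 bp paired-end, DNBSEQ) were made from total RNA. The deposited values were raw counts per gene, as the authors left them without normalization. Per the file headers, the 5 dpf and 2-month libraries were counted by featureCounts 2.0.1 on properly paired, reverse-stranded reads above a mapping quality threshold, and the shared table of the other 18 libraries gives no counting settings beyond STAR and featureCounts. All deposited counts, those of single libraries too, carry the label STAR and featureCounts. The submitters' processing notes name GRCz11, HISAT2, Bowtie2 and RSEM, and the methods of the study name Salmon. These sources differ, so the aligner behind these counts is not settled. Gene symbols came from the shared table and were joined by Ensembl identifier.

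Counts were analysed in R 4.3.3 with edgeR 4.0.16: filterByExpr (minimum count 10, minimum total 15), TMM scaling and the quasi-likelihood test, with Benjamini-Hochberg adjustment over all genes tested and a threshold of 0.05. The genotype comparisons at 24 hpf, 5 dpf, 3 and 18 months used their own 6 libraries. The 2-month contrasts used all 12 libraries of that age, and the ageing contrasts the 12 libraries of 3 and 18 months. The steps were tested on simulated data. Alternatives were DESeq2 1.42.0, other scalings and filters, the replicate number as a block, joint or separate fits and each library left out in turn. The labels number the replicates within each group and do not say that a number marks a shared animal, clutch or day. Whether the libraries of a group came from separate clutches or days is not stated, so the p-values measure the spread between these pools. The members and lists were chosen with earlier results of these data known. Named were all members, the 3 genes most like each, and called genes of the lists, at most 6 for each list and comparison by smallest adjusted p, and any gene of the transporter family. No genome or sequence table was used here, so promoters and proteins were not analysed. Fold changes and p-values that the authors deposited were not used.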

Additional observations from a re-analysis of the deposited data

Results flagged for a closer look

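In the 2-month brain the log2 fold change of slc16a6b in sgsh against wild type was 0.20 with the sgsh transgene and -0.46 without it, 0.65 apart. It was listed by a rule that takes a called difference between groups, so the listing rests on these same values. Without the transgene the sgsh libraries were below all wild-type libraries, and with it they overlapped them. Since 2-month values are likely to have chosen this gene, these values are a description, and no test of whether the effect of genotype differed between the backgrounds can be drawn from them.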

How the results depend on the processing

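Of 1129 alternative fold changes of the members, 1088 were the same, 14 gained a call, 9 lost one, 3 moved by more than the spread and 15 changed sign. Where a test is given, the same means an unchanged direction and side of the threshold. Where none is given, it means a shift no larger than the SD between libraries of a group, and no threshold was used. All 15 were uncalled and came from leaving out 1 library. Leaving out 1 library at a time, the log2 fold change of slc16a1a ran from -0.23 to 0.20 at 24 hpf (where 0.09, without sgsh replicate 3, also turned), from -0.05 to 0.15 at 5 dpf and from -0.17 to 0.32 at 2 months with the transgene. That of slc16a1b ran from -0.06 to 0.01 at 5 dpf and from -0.02 to 0.04 at 2 months with the transgene. That of SLC16A6 ran from -0.06 to 0.60 at 2 months and from -0.01 to 0.65 for genotype by transgene, and that of slc16a3b from -0.20 to 0.02 at 2 months. That of slc16a6b ran from -0.18 to 0.07 for 3-month brain against embryo and from -0.18 to 0.25 for genotype by age, with negative values without 5 different libraries. The cause was not tested.

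The number of called members at 18 months was 1 with the replicate block and 0 to 2 with 1 library left out. It was 4 in the joint fit, into which 3-month libraries enter. These fits also called very different numbers of all genes, as the next paragraph gives, so the counts are not a result about the members. At 5 dpf the number of called members was 0 to 2 with 1 library left out, and the share of all genes in those fits is not given. The other counts of called members kept within 1.5 times. Replicate numbers were not used as pairs in the main fits, since in no comparison did every same-numbered pair correlate over 0.1. At 5 dpf, at 3 months and in wild-type ageing, however, each library correlated best with its own number. There r was 0.0349 to 0.14, 0.0715 to 0.175 and 0.087 to 0.212. With 3 libraries per group, this check cannot decide whether a number marks a shared origin. With the block, SLC16A6 was called for the transgene in sgsh (0.67), and slc16a1a was not called at 18 months (1.11). With TMM over all 36 libraries, the highest over the lowest group mean was 4.87 for slc16a6b, against 5.23 on library totals, and 4.90 for SLC16A6, against 5.44, and their lowest groups were then wild-type 3-month brains and wild-type heads. Without centring the ages, none of the 3 genes most like slc16a6b, slc16a1a or slc16a1b was kept, and 1 each for SLC16A6 and slc16a3b.

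Among all genes, edgeR called 4369 at 24 hpf, DESeq2 2590 and the joint fit 1501. At 5 dpf it was 3110 by edgeR and 1872 by DESeq2, at 2 months 166 and 274 (94 with 6 libraries alone), with the transgene 6 and 24 (12 alone), and for genotype by transgene 25 and 109 (51 without the filter). At 18 months it was 1352 by edgeR, 2101 by DESeq2, 290 with the block, 5331 in the joint fit and 189 to 3453 with 1 library left out, and for genotype by age 26 by edgeR, 221 by DESeq2, 43 without the filter, 14 with the block and 8 to 463 with 1 library left out. No scaling moved the median of all genes by over 0.1 on the log2 scale. Depth limits slc16a1a most, with 15 to 27 counts per embryo library.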
